A study of Mus musculus with 9 samples.

Results

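The genes described here are 10 regulators and effectors of fat cell formation and lipid handling: Pparg, Cebpa, Cebpb, Cebpd, Lpl, Adipoq, Fabp4, Cd36, Apoe and Plin2. They were taken by name, as every probe set whose platform annotation gives exactly 1 gene symbol and that symbol is one of the 10. This found 17 probe sets for all 10 genes, out of 29131 probe sets with 1 symbol for 15964 genes. Of the 17, MG-U74A carries 13, and MG-U74B and MG-U74C carry 2 each. The genes are measured by 1 probe set (5 genes), 2 probe sets (3 genes) or 3 probe sets (2 genes).

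The measurements are Affymetrix intensities from 9 arrays, 1 for each of 3 mouse stromal cell lines on each of 3 array types. The source of both AGM lines is stroma of the aorta-gonad-mesonephros (AGM) region, and the submitters class one, AGM-s3-A9, as supportive of hematopoiesis and the other, AGM-s3-A7, as non-supportive. OP9 is a supportive line from newborn mouse calvaria, and as background it was established from op/op mice, which lack functional Csf1 protein, and is known for turning readily into fat cells in culture. No line carries a treatment in the labels, and culture medium, passage and cell density at harvest are not stated in the labels. Because each line has 1 array per type, there is no replicate error and no p-value, and a line cannot be told apart from its array.

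Fat cell formation is driven by a cascade of transcription factors. C/EBP beta and C/EBP delta (Cebpb, Cebpd) act early, and they induce PPAR gamma and C/EBP alpha (Pparg, Cebpa), which sustain each other and switch on genes of the mature fat cell. Those include genes for fatty acid release and uptake (Lpl, Cd36), for a cytosolic fatty acid carrier (Fabp4) and for the hormone adiponectin (Adipoq). Plin2 coats lipid droplets in most cell types, and Apoe carries lipid in lipoproteins and is made by stromal cells and macrophages among others. In bone marrow, stromal cells and fat cells are known to share precursors.

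Levels below are intensities after quantile normalization within an array type, and a ratio is formed after raising any lower value to the detection level. That level is the higher of the array type's median and the 95th percentile of 34 control probe sets that should find no target, which gave 49.0 for the MG-U74A arrays, 52.8 for MG-U74B and 61.6 for MG-U74C. Where 1 line of a pair does not exceed this level the fold is a bound, written "at least". The spread of ratios between probe sets of 1 gene on the same array type had a robust SD, on the log2 scale, of 0.29 for the AGM lines against each other, and for OP9 it was 0.31 with AGM-s3-A7 and 0.33 with AGM-s3-A9. The SD is scaled to the ratio of 1 probe set, and the difference between a pair of probe sets of a gene spreads more widely. The SD does not cover separate cultures or repeat hybridisations.

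**Figure D1:**
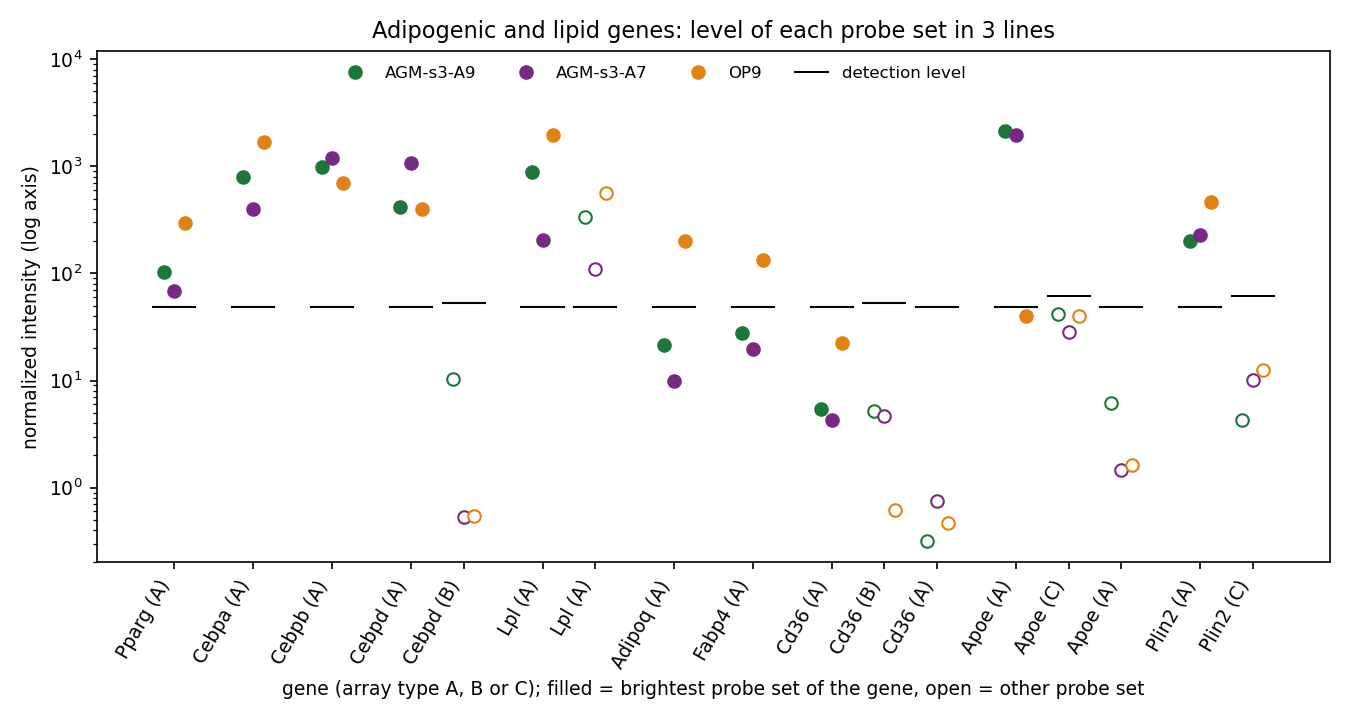
Normalized intensity (log axis) of each of the 17 probe sets in the lines AGM-s3-A9, then AGM-s3-A7, then OP9; filled points are the brightest probe set of a gene, open points its others, and the horizontal bars mark the detection level of the array type. Pparg, Cebpa, Lpl, Adipoq, Fabp4 and Plin2 are highest in OP9, Apoe is high in both AGM lines and below the level in OP9, and no probe set of Cd36 reaches the level.

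Across the members, OP9 carried more transcript of the late regulators Pparg and Cebpa and of Lpl, Adipoq, Fabp4 and Plin2 than either AGM line, and far less of Apoe. The early regulators Cebpb and Cebpd ran the other way and were highest in AGM-s3-A7, except that Cebpb was highest in AGM-s3-A9 with the values as deposited. With those values, OP9 exceeded AGM-s3-A9 by less than 2 SD of the spread between probe sets for Cebpa, Lpl and Plin2. Of the 10 genes, 6 exceeded the detection level in all 3 lines on their brightest probe set, 1 (Apoe) in 2 lines, 2 (Adipoq and Fabp4) in OP9 alone and 1 (Cd36) in none. Adipoq and Fabp4 thus entered the comparisons through OP9 alone, the line in which they are high. Of the 15964 genes of the series, 7067 outside the members exceeded the level in all 3 lines.

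Pparg, the nuclear receptor that directs fat cell differentiation, read 103 for AGM-s3-A9, 68.1 for AGM-s3-A7 and 299 for OP9. OP9 was thus 4.39-fold above AGM-s3-A7 and 2.91-fold above AGM-s3-A9, while AGM-s3-A9 lay 1.51-fold above AGM-s3-A7, just over 2 SD of the spread between probe sets. In RNA of whole cultures, fewer expressing cells and less transcript per cell cannot be told apart. The gene has a single probe set, whose suffix marks a sequence that can be shared with other transcripts, so the value is not checked by another one. Among 7329 genes above the level in both lines, the difference between OP9 and AGM-s3-A7 ranked 24 from the highest.

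Cebpa, the partner of Pparg, read 787 for AGM-s3-A9, 401 for AGM-s3-A7 and 1702 for OP9. The order of the lines was the same as for Pparg, and every step exceeded 2 SD. OP9 was 4.24-fold above AGM-s3-A7 and 2.16-fold above AGM-s3-A9, and AGM-s3-A9 was 1.96-fold above AGM-s3-A7. Its ratio of OP9 to AGM-s3-A7 ranked 26 of 7329, close to that of Pparg. Levels of these 2 genes come from different probe sets and are not compared with each other.

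Cebpb, one of the early inducers, read 987 for AGM-s3-A9, 1188 for AGM-s3-A7 and 704 for OP9. OP9 was 1.69-fold below AGM-s3-A7, more than 2 SD but short of 2-fold. The AGM lines lay 1.20-fold apart, within 2 SD of that spread, and their order turned with the values as deposited (log2 ratio 0.33 against -0.27).

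Cebpd, the other early inducer, separated AGM-s3-A7 from both other lines. Its brightest probe set read 421 for AGM-s3-A9, 1067 for AGM-s3-A7 and 401 for OP9. AGM-s3-A9 was 2.54-fold and OP9 2.66-fold lower than AGM-s3-A7, and the supportive lines lay within 1.05-fold of each other. With the values as deposited that last log2 ratio moved from -0.07 to -0.72, past 2 SD, so that AGM-s3-A9 lay between the other lines. Both of these ratios share the AGM-s3-A7 array. A second probe set, on MG-U74B, read 10.3, 0.53 and 0.55 and was below the detection level in every line, so it bears on neither ratio.

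Promoter windows from the RefSeq table of build GRCm38.p6, 250 bases before to 50 after an annotated start, were found for 7 of the 10 genes, with 11 windows in all. Fabp4, Lpl and Cebpd have no entry. The windows of Pparg, Cebpa, Adipoq and Plin2 are shown because these are the genes with an entry that were at least 2-fold higher in OP9 than either AGM line. Start 1 of Pparg, which holds none of the motifs marked here, is not printed. Starts of a gene are numbered by rising coordinate, the window of Plin2 lies on the minus strand and the others on the plus strand, and sequences run 5′ to 3′. Capitals mark matches, on either strand, to the C/EBP core TTGCNNAA, the TATA box TATAAA, the CCAAT box (CCAAT) and the E-box CACGTG. The first lines are starts 2 and 3 of Pparg, at chr6:115362099-115362398 and chr6:115421816-115422115. Then come Cebpa at chr7:35119043-35119342, Adipoq at chr16:23146286-23146585 and Plin2 at chr4:86670010-86670309.

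Pparg start 2: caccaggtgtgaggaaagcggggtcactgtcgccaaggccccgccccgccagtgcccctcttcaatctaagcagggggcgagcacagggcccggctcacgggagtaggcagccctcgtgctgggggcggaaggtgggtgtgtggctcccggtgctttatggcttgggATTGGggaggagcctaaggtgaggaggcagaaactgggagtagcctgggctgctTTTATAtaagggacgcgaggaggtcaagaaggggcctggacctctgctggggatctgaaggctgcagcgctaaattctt

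Pparg start 3: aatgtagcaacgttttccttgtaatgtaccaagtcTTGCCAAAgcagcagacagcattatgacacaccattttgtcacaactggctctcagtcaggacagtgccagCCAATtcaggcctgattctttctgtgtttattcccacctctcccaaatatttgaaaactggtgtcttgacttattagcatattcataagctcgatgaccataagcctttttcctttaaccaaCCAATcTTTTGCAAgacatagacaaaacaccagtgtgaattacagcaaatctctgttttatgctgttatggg

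Cebpa: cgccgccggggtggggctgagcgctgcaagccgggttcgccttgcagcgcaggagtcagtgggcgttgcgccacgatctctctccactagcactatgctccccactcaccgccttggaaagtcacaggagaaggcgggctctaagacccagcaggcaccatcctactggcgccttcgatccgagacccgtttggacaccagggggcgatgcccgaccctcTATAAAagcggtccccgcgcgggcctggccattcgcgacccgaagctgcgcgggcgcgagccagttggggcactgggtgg

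Adipoq: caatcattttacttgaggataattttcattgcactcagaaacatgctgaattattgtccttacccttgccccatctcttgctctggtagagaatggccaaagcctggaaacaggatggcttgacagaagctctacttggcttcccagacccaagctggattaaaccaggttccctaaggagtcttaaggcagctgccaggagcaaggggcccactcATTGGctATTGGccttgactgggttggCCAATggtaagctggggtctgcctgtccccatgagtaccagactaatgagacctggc

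Plin2: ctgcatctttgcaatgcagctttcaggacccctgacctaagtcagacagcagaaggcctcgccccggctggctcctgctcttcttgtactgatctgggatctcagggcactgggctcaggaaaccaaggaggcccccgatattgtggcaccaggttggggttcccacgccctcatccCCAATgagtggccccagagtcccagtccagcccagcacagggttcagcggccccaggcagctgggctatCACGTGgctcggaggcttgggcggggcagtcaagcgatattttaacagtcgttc

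Start 3 of Pparg holds 2 matches to the C/EBP core, TTGCCAAA and, for the core on the other strand, TTTTGCAA, beginning 215 and 16 bases before the start. It is the only one of the 11 windows with this core, which occurs in 10.8% of 32851 windows of the table. Its GC content was 40.3%, against 80.3% at start 1 and 62.7% at start 2. The probe set of Pparg is not tied here to 1 of these starts.

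Cebpa has a TATAAA match 30 bases before its start, and Adipoq has 3 CCAAT matches within its last 34 bases before the start. TATAAA occurs in 13.6% and CCAAT in 37.4% of all windows. Among the 11 windows they were in 4 and 5. Pparg and Apoe each gave 3 of the 11, and starts 1 and 2 of Apoe overlap, so the windows are not all separate promoters. AGGTCA, the letters that nuclear receptors such as PPAR gamma read as a repeat, was in 4 of the 11 windows and 16.3% of all. The full repeat spaced by 1 base, AGGTCANAGGTCA, was in 0 of the 11 and in 0.040% of all. GGGCGG was in 5 of the 11 and 35.7% of all, and CACGTG in 1, that of Plin2, and 7.15% of all. These are matches of letters in short windows and no measure of binding, and many known sites of these factors lie outside such windows.

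**Figure D2:**
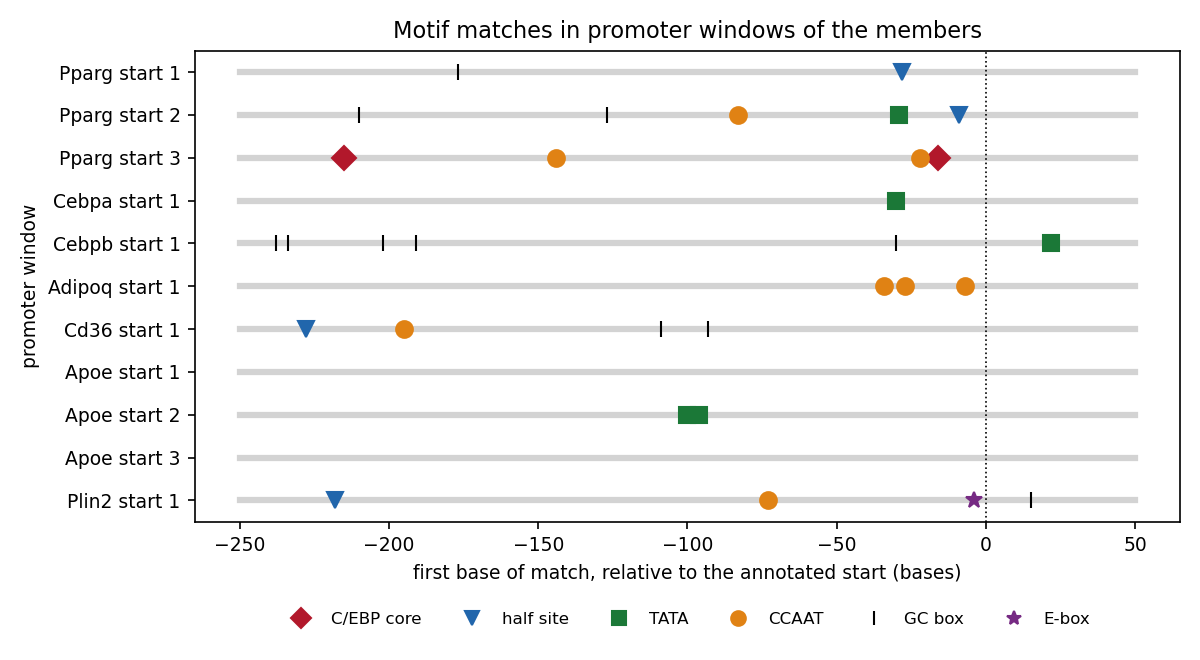
Position of motif matches, in bases relative to the annotated start, in 11 promoter windows of 7 members; each symbol is 1 match on either strand and the grey bar is the window. The C/EBP core appears at start 3 of Pparg alone, and 2 of the 3 Apoe windows hold no match.

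Lpl, encoding lipoprotein lipase, which frees fatty acids from circulating triglyceride, is the 1 member with a second probe set above the level. The brightest read 878 for AGM-s3-A9, 203 for AGM-s3-A7 and 1974 for OP9, and the other 333, 111 and 563. Both gave the same order of lines. AGM-s3-A9 was 4.32-fold above AGM-s3-A7 on the first and 3.01-fold on the second, and OP9 was 9.71-fold and 5.09-fold above AGM-s3-A7. OP9 exceeded AGM-s3-A9 by 2.25-fold on the first and by 1.69-fold on the second, so this last step reached 2-fold on 1 of 2 probe sets. On the brightest, Lpl ranked 3 of 7329 genes for OP9 against AGM-s3-A7 and 16 of 7534 between AGM-s3-A9 and AGM-s3-A7.

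Adipoq, the adiponectin gene and a marker of mature fat cells, read 21.3 for AGM-s3-A9, 9.87 for AGM-s3-A7 and 200 for OP9. Only OP9 exceeded the level, and it was at least 4.08-fold above each AGM line. Fabp4, the fatty acid binding protein of fat cells and also of macrophages, read 27.5, 19.6 and 133 in the same order of lines, so OP9 was at least 2.72-fold above either. The AGM lines cannot be ordered for these genes, since both of their values lie below the level. With a floor at the 25th percentile of MG-U74A the log2 ratio of OP9 to AGM-s3-A7 grew from 2.03 to 4.34 for Adipoq and from 1.44 to 2.77 for Fabp4.

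Cd36, a fatty acid translocase and scavenger receptor, was not detected. Its 3 probe sets read 5.47, 4.30 and 22.4 (the brightest), 5.16, 4.67 and 0.61, and 0.32, 0.75 and 0.47, in the order AGM-s3-A9, then AGM-s3-A7, then OP9, which also holds for values given in a row of 3 below. All 9 values are below the detection level, so no fold is given. A level below that of the control probe sets does not show that the transcript is absent.

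Plin2, the lipid droplet coat protein, read 200.1 for AGM-s3-A9, 228 for AGM-s3-A7 and 466 for OP9. OP9 was 2.05-fold above AGM-s3-A7 and 2.33-fold above AGM-s3-A9, just past 2-fold, and the AGM lines were 1.14-fold apart, within 2 SD of that spread, and their order turned with the values as deposited (log2 ratio 0.53 against -0.19). A second probe set on MG-U74C read 4.33, 10.1 and 12.6, below the level in all lines.

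Apoe, encoding apolipoprotein E, was the member that differed most. Its brightest probe set read 2140 for AGM-s3-A9, 1982 for AGM-s3-A7 and 40.4 for OP9, below the level. OP9 was at least 40.5-fold lower than AGM-s3-A7 and at least 43.7-fold lower than AGM-s3-A9, while the AGM lines differed by 1.08-fold, in an order that turned with trimmed mean and 75th percentile scaling (log2 ratios -0.01 and -0.06 against 0.11). The other 2 probe sets did not report this difference. One on MG-U74C read 41.8, 28.5 and 39.8, and one on MG-U74A read 6.23, 1.47 and 1.61, below the level even in the lines in which the brightest read 2140 and 1982. The low Apoe signal in OP9 therefore rests on 1 probe set.

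Whether a member probe set was detected went with its suffix, which marks probes that were pruned or can find several transcripts. Of the 7 member probe sets with such a suffix, 6 were below the level in every line, the exception being that of Pparg. Of the 10 without one, 9 exceeded the level in at least 1 line, the exception being the brightest of Cd36. All ratios given for the members except those of Pparg thus come from probe sets without a suffix. The 2 member probe sets on MG-U74B and the 2 on MG-U74C all carry a suffix, and all without one are on MG-U74A. Suffix and array type can therefore not be fully told apart here. The same shares over all probe sets were not computed, so the counts describe the members only.

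Markers of other cells that could supply these transcripts were read from the same arrays. All 9 macrophage markers (Adgre1, Csf1r, Cd68, Lyz2, Ptprc, Itgam, Fcgr1, Mrc1 and Marco) were at or below the level in every line, with summed levels of 112 for AGM-s3-A9, 108 for AGM-s3-A7 and 134 for OP9. All 7 endothelial markers were likewise below it, with sums of 74.6, 58.3 and 50.1. Of 6 measured markers of mature fat cells, the leptin gene Lep exceeded the level in all 3 lines on its brightest probe set, at 120, 140 and 176. A second probe set of Lep on MG-U74A, with a suffix, read 8.86, 10.5 and 15.3, below the level in every line. The Lep signal thus rests on 1 probe set. Aqp7, Cidec, Lipe, Retn and Slc2a4 exceeded the level in none. Of 8 stromal markers, 7 exceeded it in AGM-s3-A9 and AGM-s3-A7 and 6 in OP9, led by Col1a1 at 6684, 6174 and 3539. Vim was below the level in all lines, and Thy1 read 416 and 206 in the AGM lines and 4.61 in OP9. The values of Csf1r, Cd68, Ptprc, Fcgr1, Retn and Slc2a4 come from probe sets with a suffix. A marker below the level does not show that its transcript or cell type is absent.

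Counted by gene at a fold of at least 2, between AGM-s3-A9 and AGM-s3-A7 1 of 7 members above the level in at least 1 of both lines was higher (Lpl) and 1 lower (Cebpd). Over all 8590 genes tested in this way 3.08% were higher and 2.28% lower. The median log2 ratio of the 7 was 0.11, against 0.01 over all genes. With the values as deposited, 3 members were higher (Pparg, Cebpa and Lpl) and 0 lower.

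For OP9 against AGM-s3-A7, 6 of 9 members were higher (Pparg, Cebpa, Lpl, Adipoq, Fabp4 and Plin2) and 2 lower (Cebpd and Apoe), where 5.14% of 8739 genes were higher and 5.98% lower. Their median log2 ratio was 1.44, against 0.04 over all genes, and this is the value of Fabp4, a bound set by the floor. Adipoq and Fabp4 passed the filter through OP9 alone, the line in which they are high. The filter thus fixed the direction of their ratios, though not that these reached 2-fold. Without Adipoq and Fabp4, a count added after the data were seen, 4 of 7 were higher and 2 lower, with a median of 1.03. For OP9 against AGM-s3-A9 the same 6 were higher and 1, Apoe, was lower, with 5.06% and 6.58% of 8760 genes as background and medians of 1.17 and 0.02. Without Adipoq and Fabp4 that is 4 of 7 higher and 1 lower, with a median of 1.11. Apoe stays in both recounts, though it passed the filter of each comparison through the AGM line alone, where it is high. The direction of its ratios was fixed in the same way, so the lower counts are not free of the filter. These comparisons share the OP9 arrays, so their overlap is not independent. The members were chosen with results of these data known, and the counts describe them only.

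The scale between arrays bears on AGM-s3-A9 more than on the other lines. Its MG-U74A array was the brightest as deposited, with a median of 64.5 against 42.7 in AGM-s3-A7 and 42.8 in OP9. On MG-U74B the AGM-s3-A9 median was the lowest, at 21.6 against 26.5 and 32.6. The same held on MG-U74C, at 8.49 against 12.1 and 9.68. The shares over all genes that follow mix the 3 array types. With the values as deposited, 12.8% of all genes were higher in AGM-s3-A9 than AGM-s3-A7 and 3.24% lower, and 7.69% were higher in OP9 than AGM-s3-A9 and 13.5% lower. The log2 ratio of AGM-s3-A9 to AGM-s3-A7 then rose from 0.59 to 1.29 for Pparg and from 0.97 to 1.70 for Cebpa, both then past 2-fold. That of Cebpd shrank from -1.34 to -0.68, no longer 2-fold. Against AGM-s3-A9, the log2 ratios of OP9 fell to 0.90 for Pparg, 0.44 for Cebpa, 0.54 for Lpl and 0.59 for Plin2, all under 2-fold. Those of Cebpa, Lpl and Plin2 were then within 2 SD of the spread between probe sets. The ratio of Cebpb moved from -0.49 to -1.11, past 2-fold lower. Scaling to the 75th percentile kept the members counted in each comparison, and scaling to the trimmed mean added Cebpa, at a log2 ratio of 1.01, between the AGM lines. The calls for OP9 against AGM-s3-A7 named the same 8 genes under all 4 scalings.

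**Figure D3:**
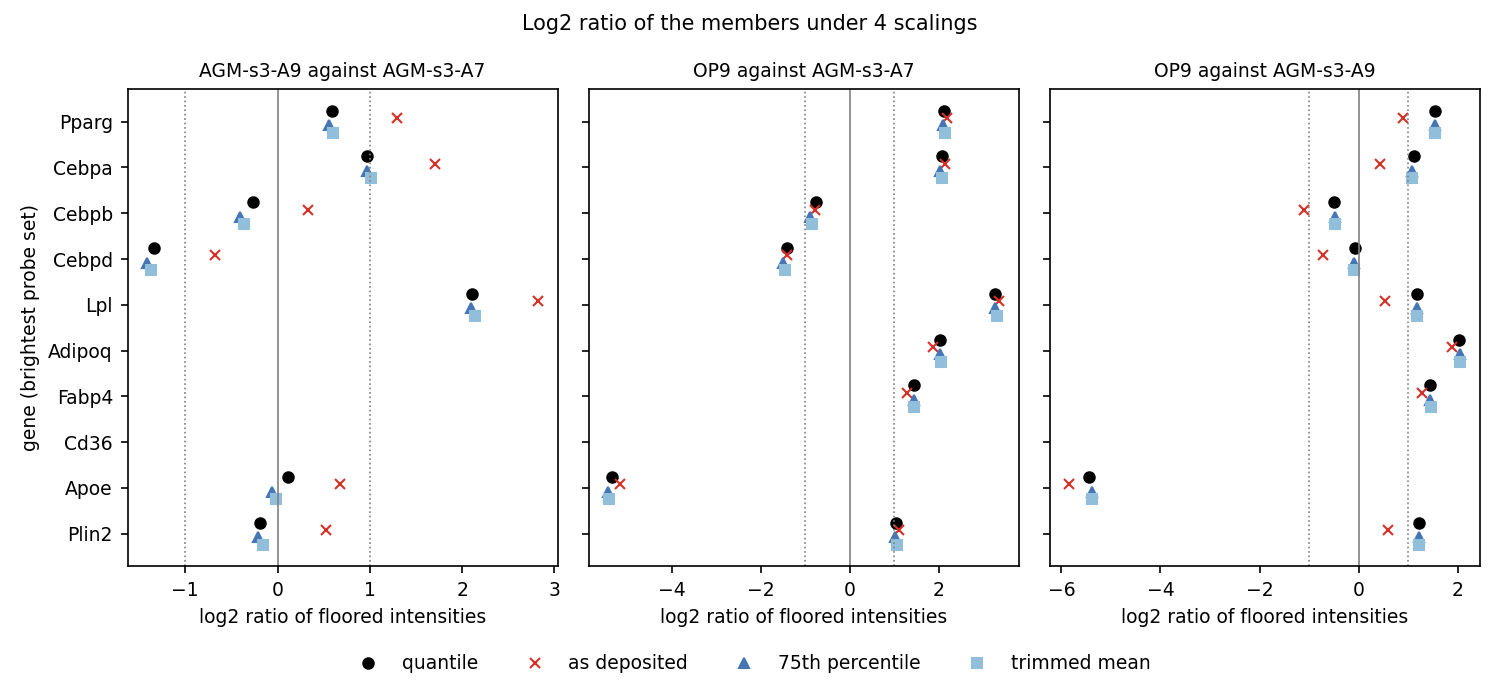
Log2 ratio of each member's brightest probe set in 3 comparisons under quantile normalization, the values as deposited, 75th percentile scaling and trimmed mean scaling; dotted lines mark 2-fold and Cd36 has no value. The values as deposited shift the 2 panels that involve AGM-s3-A9 and move OP9 against AGM-s3-A7 little.

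To place the members in their pathways, 98 other genes of fat cell formation and lipid handling were listed by role. Of these 88 had a probe set with 1 symbol, 64 exceeded the detection level in at least 1 line and 24 did not. For OP9 against AGM-s3-A7, 11 of 64 were higher and 3 lower, with a median log2 ratio of 0.01. These are 17.2% and 4.7% of the list, beside 5.14% and 5.98% of all genes. For OP9 against AGM-s3-A9, 14 of 62 were higher and 5 lower, with a median of 0.14, or 22.6% and 8.1% beside 5.06% and 6.58%. The share of the list that was higher in OP9 was thus above that of all genes in both comparisons, which share the OP9 arrays, while its medians were near 0.04 and 0.02 of all genes. Of the higher genes, Nr1h3, Lpin1, Rbp4 and Abcg1 passed the filter of both comparisons through OP9 alone. The same held for Zfp423 against AGM-s3-A7 and Abca1 against AGM-s3-A9. Among the lower genes, Cdh13 passed through AGM-s3-A7 alone. The filter fixed the direction of these genes, though not that they reached 2-fold, and no share without them was computed. The list was chosen with results of these data known, so its shares describe it only. Between AGM-s3-A9 and AGM-s3-A7, 2 of 60 were higher and 3 lower, with a median of -0.10, or 3.3% and 5.0% beside 3.08% and 2.28%. The counts by role that follow are for OP9 against AGM-s3-A7, where 5.14% of all genes were higher and 5.98% lower, and most rest on a few genes.

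Among adipogenic transcription factors, 3 of 15 (20.0%) were higher in OP9 than AGM-s3-A7 and 0 lower. Zfp423, a zinc finger factor of preadipocyte commitment, read 99.8 for AGM-s3-A9, 47.0 for AGM-s3-A7 and 251 for OP9, at least 4.74-fold higher in OP9. Klf4, a Krüppel-like factor that acts early in the cascade, read 160, 178 and 509, or 2.86-fold higher. Egr2, another early factor, stood out in AGM-s3-A9 at 248 against 46.4 and 66.6, at least 5.05-fold above AGM-s3-A7.

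Nr1h3, encoding the liver X receptor alpha, read 42.1, 3.77 and 113, at least 2.30-fold higher in OP9. Cebpg was 2.64-fold higher in OP9 than AGM-s3-A9, and Nr3c1, the glucocorticoid receptor gene, was 2.28-fold lower in AGM-s3-A9 than AGM-s3-A7 on its brightest probe set. Another on the same array type went the other way, at 131 for AGM-s3-A9 against 82.6, and these last 3 genes are named after their values were seen. Rxra, whose product dimerises with PPAR gamma, read 245, 205 and 199, within 2-fold in every comparison. The same held for Ebf1, at 400, 292 and 418, and Srebf1, at 380, 370 and 315, all chosen after their values were seen.

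Among inhibitors of adipogenesis, 2 of 7 (28.6%) were higher in OP9 than AGM-s3-A7 and 0 lower. Dlk1, the preadipocyte factor that restrains differentiation, read 230 for AGM-s3-A9, 467 for AGM-s3-A7 and 1934 for OP9, and its other 2 probe sets were below the level in all lines. Hes1, a Notch target, was at 108, 58.8 and 123, or 2.09-fold higher in OP9 than AGM-s3-A7. Ddit3, which encodes an inhibitory C/EBP family member, read 114, 218 and 369 and was 3.23-fold higher in OP9 than AGM-s3-A9. Both the drivers Pparg and Cebpa and the restraining Dlk1 were thus highest in OP9.

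Genes of fatty acid uptake, binding and activation gave 0 of 10 higher and 1 lower in OP9 than AGM-s3-A7. The 1 lower was Lrp1, a receptor for Apoe-bearing lipoproteins, which read 2025, 1886 and 929, or 2.03-fold lower. Fabp5, a relative of Fabp4, read 139, 134 and 134 and was level across the lines.

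In triglyceride synthesis 1 of 12 (8.3%) was higher in OP9 than AGM-s3-A7 and 1 lower. Scd1, the stearoyl-CoA desaturase gene, read 446, 350.3 and 82.0, or 4.27-fold lower for OP9 than AGM-s3-A7. A second probe set read 264, 98.3 and 21.4 and gave the same direction. Its neighbour in function Scd2 read 1316, 1136 and 1485, with no 2-fold difference. Lpin1, a phosphatidate phosphatase of glyceride synthesis, was above the level in OP9 alone, at 103 and at least 2.09-fold higher. Gpd1, which supplies glycerol phosphate, read 132 in AGM-s3-A9 and 14.1 in AGM-s3-A7, at least 2.69-fold apart. Fasn read 341, 417 and 298 and Acaca 129, 148 and 187, within 2-fold throughout.

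For lipid droplets and lipolysis 1 of 6 (16.7%) was higher in OP9 than AGM-s3-A7 and 0 lower. G0s2, an inhibitor of triglyceride lipase, read 53.5, 53.7 and 327, or 6.09-fold higher. The lipase gene Pnpla2, on which G0s2 acts, was level at 195, 230 and 243. Abhd5, an activator of that lipase, was 2.70-fold higher in OP9 than AGM-s3-A9 on 1 of 2 measured probe sets, and Lipa, the lysosomal acid lipase gene, was 2.49-fold lower. Of the fat cell droplet genes, Cidea and Cidec were below the level in all lines, and the probe sets of Plin4 disagreed. Its brightest, on MG-U74C, was level at 186, 205 and 205. The other, on MG-U74A, read 27.8, 37.5 and 197, at least 4.01-fold higher in OP9 than either AGM line.

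Among adipokines and adipocyte products 3 of 7 (42.9%) were higher in OP9 than AGM-s3-A7 and 1 (14.3%) lower. Rbp4, the retinol binding protein gene, read 2.65 and 4.21 in the AGM lines and 339 in OP9, at least 6.91-fold higher. Nampt was 3.43-fold higher, and its second probe set was above the level in OP9 alone. Adipor2, a receptor for adiponectin and named after its values were seen, was 2.94-fold higher on its brightest probe set, while a second measured one read 85.5, 79.4 and 123. The other receptor gene, Adipor1, read 52.1, 67.4 and 53.0. Cdh13, encoding a cell surface protein that binds adiponectin, was above the level in AGM-s3-A7 alone, at 268, so AGM-s3-A9 and OP9 were each at least 5.07-fold below it.

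For lipoprotein and cholesterol export 1 of 7 (14.3%) was higher in OP9 than AGM-s3-A7 and 0 lower. Abcg1, a cholesterol exporter, read 34.7, 16.9 and 159, at least 3.24-fold higher in OP9. Abca1, which loads cholesterol onto apolipoproteins, read 6.09 for AGM-s3-A9, 88.7 for AGM-s3-A7 and 146 for OP9, at least 2.98-fold higher in OP9 than AGM-s3-A9. The apolipoprotein genes Apoa1, Apob, Apoc1 and Apod were all below the level in every line, so Apoe was the 1 apolipoprotein of those listed that was detected. Pltp and Npc2 were high and level, at 646, 757 and 899 and at 1535, 1112 and 1500.

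**Figure D4:**
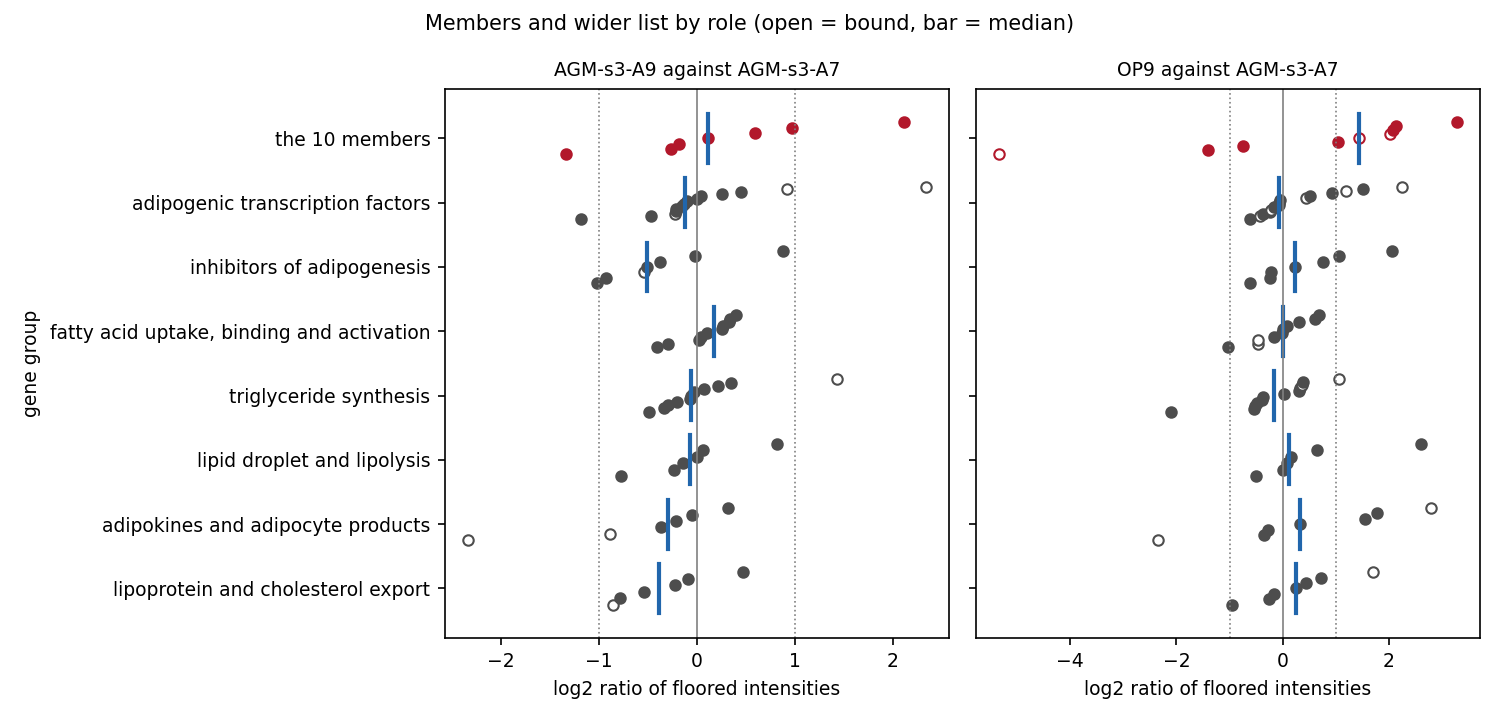
Log2 ratio of the members (red) and of the wider list by role (grey) for AGM-s3-A9 (left) and OP9 (right), each against AGM-s3-A7; every point is a gene above the detection level in at least 1 of both lines, open points are bounds, blue bars are medians and dotted lines mark 2-fold. The members' median lies at 0.11 in the left panel and 1.44 in the right, while the medians of the role groups lie between -0.51 and 0.33.

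The 5 genes whose pattern over the 3 lines was most like that of Pparg were Polr1a, Slc1a5, Chchd4, Efna5 and Spata6. Likeness was the root mean square difference of centred log2 levels over 3 lines, which ran from 0.07 to 0.12, among 7067 genes above the level in the same lines. With 3 values per gene, a close match is easily reached.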

How the data were processed

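Total RNA of each line was labelled as biotinylated cRNA from 6 ug, per the labels' protocols, and hybridised to MG-U74A, MG-U74B and MG-U74C arrays. The deposited values are 1 linear intensity per probe set; the authors' scanner software, summarisation and scaling were not stated in the labels. The means of the 3 arrays of a type, trimmed by 2% at each end, differed by 61.1%, 49.8% and 49.7%, above the 5% set as the limit, so log2 intensities were quantile normalized within each type (Python 3.11.15, numpy 2.4.6, pandas 2.3.3). This removes any general shift between lines. Values below the detection level were raised to it, a gene took its probe set with the highest mean over the lines, and a fold of 2 counted as higher or lower. The fold calculation was tested on simulated data, in which only MG-U74A probe sets with a base intensity well above the detection level were changed. The noise there was smaller than the SD between probe sets. That test does not cover genes near or below the level.

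Each line and array type is 1 sample, so no test was run. The members and lists were chosen with earlier results of these data known. Every probe set of the members is given. From each role of the wider list up to 3 genes with the largest ratio past 2-fold are named; level genes of the list, and those said to be, were named after their values were seen. Alternatives were 3 other scalings, 2 lower floors, the median of all probe sets of a gene, probe sets without a suffix, and folds of 1.5 and 3. Promoter sequences are RefSeq's. The platform annotation is the source of gene symbols; protein sequences were not used here.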

Additional observations from a re-analysis of the deposited data

How the results depend on the processing

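Of 172 log2 ratios of single members under the alternatives, 147 moved by less than 1 robust SD between probe sets and 25 moved further. Many of the 147 could not move, so their number is no measure of robustness. MG-U74A carries every brightest probe set of the members, and its detection level is its median, so a floor there changed nothing. Leaving out suffixes dropped Pparg and changed no other member. A lower floor cannot change genes above the level in both lines, and the median over probe sets cannot change genes with 1. Of the ratios past 2-fold, 0 changed sign. The small ratios between the AGM lines of Cebpb, Plin2 and Apoe did. The cause of the changes below was not tested unless stated. With the values as deposited, 3 members were higher and 0 lower in AGM-s3-A9 than AGM-s3-A7 (median 0.67), and 2 were higher and 2 lower in OP9 than AGM-s3-A9 (median 0.54). For the wider list, 10 were higher (median 0.35) in the first of these comparisons, and 8 were lower (median -0.26) in the second. Quantile normalization removes differences in brightness between arrays, which the deposited values keep. These include the higher median of AGM-s3-A9 on MG-U74A and its lower medians on MG-U74B and MG-U74C. Over all genes, the median moved from 0.01 to 0.24 between AGM-s3-A9 and AGM-s3-A7, with 12.8% then higher and 3.24% lower, and from 0.02 to -0.19 for OP9 against AGM-s3-A9, with 7.69% and 13.5%. Trimmed mean scaling gave 2 members higher in AGM-s3-A9 than AGM-s3-A7.

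A floor at the 25th percentile gave 2 members higher in AGM-s3-A9 than AGM-s3-A7 (median 0.49), with 5 of the wider list higher and 7 lower there, 9 lower in OP9 than AGM-s3-A7 and 10 lower in OP9 than AGM-s3-A9. A floor at the array type median gave 6 lower in OP9 than AGM-s3-A7. Taking the median of all probe sets of a gene, which by construction counts probe sets below the level as unchanged, left 0 members lower in any comparison. For the wider list it gave 1 higher and 0 lower in AGM-s3-A9 than AGM-s3-A7, and 7 and 6 higher in OP9 than AGM-s3-A7 and AGM-s3-A9. A fold of 1.5 gave 3 members higher in AGM-s3-A9 than AGM-s3-A7, and for the wider list 5 higher and 8 lower there and 17 higher and 6 lower in OP9 than AGM-s3-A7. A fold of 3 left 0 members lower between the AGM lines, 1 lower in OP9 than AGM-s3-A7 and 1 higher in OP9 than AGM-s3-A9. For the wider list it left 1 higher and 1 lower between the AGM lines, 6 higher in OP9 than AGM-s3-A7, and 7 higher and 2 lower in OP9 than AGM-s3-A9.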
